A study of Anser cygnoides with 4 samples.

Results

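PAX7 is the transcription factor that marks satellite cells, the stem cells of skeletal muscle, and the cells described here are the PAX7 cells of goose leg muscle at embryonic days 23 and 18 (E23 and E18). They were chosen by their own counts: barcodes with 300 to 6500 genes and 1000 to 50000 UMIs (unique molecular identifiers, each standing for a captured RNA molecule), at least 2 UMIs of PAX7, none of MYOG, which is switched on when muscle cells differentiate, and none of PTPRC, which marks white blood cells. This left 4241 cells of 10946 barcodes within the limits at E23, or 38.7%, and 3153 of 11236 at E18, or 28.1%. Together they make 7394 of the 49503 barcodes within the limits in the whole series. Of the members, 678 at E23 and 525 at E18 had exactly 2 UMIs of PAX7, and just outside the rule 921 barcodes at E23 and 610 at E18 had 1 UMI with neither MYOG nor PTPRC. A further 1168 barcodes at E23 and 1624 at E18 met the PAX7 limit and were left out for MYOG, and 62 at E23 and 22 at E18 for PTPRC.

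Leg muscle of untreated female Zhedong White goose embryos was sampled at E23, E18, E15 and E13, with 1 pooled library per stage. The pool was of 3 embryos by the sample labels and of 4 by the methods of the study. Cells were freed by Dispase II and Collagenase II, enriched by letting fibroblasts attach to plastic, frozen, thawed and captured for 3′ single-cell sequencing, so the cells are those that passed these steps. With 1 library per stage, the stage, the pool and the handling of the library cannot be told apart. No test between stages was possible, and every interval below covers counting error only.

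Satellite cells arise from limb muscle precursors that carry PAX3 and PAX7. In late embryonic life they settle between the muscle fibre and its basement membrane, and some go on dividing to feed fibre growth while others withdraw from the cycle. MYF5 and MYOD1 commit them to the muscle lineage, and Notch signals, made when JAG or DLL ligands on neighbouring cells engage the NOTCH receptors, hold back their differentiation through HES and HEY repressors.

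The barcodes of the E23 library had a median of 10928 UMIs and those of the E18 library 10366, and 27 barcodes occurred in both. PAX7 cells had a median of 12327 UMIs and 4300 genes at E23, against 11004 UMIs and 3668 genes at E18, and summed to 54524172 UMIs at E23 and 38221911 at E18. Ribosomal protein genes took 12.8% of those UMIs at E23 and 16.3% at E18, and mitochondrial genes 0.285% at E23 and 0.236% at E18. Counts were summed over the cells of a library and expressed as counts per 1e+06 UMIs (CPM) after TMM scaling, which sets the bulk of genes to no change, and log2 ratios are E23 over E18. Scaling moved the ratios down by 0.25: the median gene stood at -0.01 with it and at 0.24 with library totals alone.

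Markers of connective tissue progenitors were the most abundant of those of other cell types in the PAX7 cells. The 14 fibro-adipogenic markers in the files summed to 2478 CPM at E23 and 2603 CPM at E18, led at E23 by COL1A1 with 524 CPM at E23 and 326 CPM at E18 and PRRX1 with 519 CPM at E23 and 902 CPM at E18. PDGFRA, the defining receptor of these progenitors, was at 2.57 CPM at E23 and 5.91 CPM at E18. DCN, the gene that chose the fibro-adipogenic cells described below, was far more abundant, with 206 CPM at E23 and 270 CPM at E18. Counting all UMIs of a cell, DCN was detected in 45.1% of PAX7 cells at E23 and 56.4% at E18. The fibro-adipogenic cells had 1624 CPM of DCN at E23 and 1617 CPM at E18. The 10 myocyte markers summed to 273 CPM at E23 and 199 CPM at E18. The 9 endothelial markers summed to 17.8 CPM at E23 and 13.4 CPM at E18, and KDR, the defining one, was at 0.286 CPM at E23 and 0.171 CPM at E18. The immune list summed to 46.4 CPM at E23 and 34.7 CPM at E18, most of it CD82 with 32.9 CPM at E23 and 20.9 CPM at E18. The Schwann list summed to 41.0 CPM at E23 and 110 CPM at E18, and GPX3 alone had 20.1 CPM at E23 and 92.1 CPM at E18, while SOX10 and S100B, the defining Schwann genes, stayed under 1 CPM in both libraries. The 7 mural markers summed to 642 CPM at E23 and 420 CPM at E18, most of it ACTA2 with 420 CPM at E23 and 215 CPM at E18, and the 7 cartilage markers to 54.2 CPM at E23 and 84.7 CPM at E18. An alternative limited to PAX7 cells with no DCN and at most 1 UMI of ACTC1 is given at the end. Beyond it, the part of such cells in the results was not tested.

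Of 7009 genes that reached 20 CPM in the mean of E23 and E18, 396 (5.65%) were at least 2-fold higher at E23 and 635 (9.06%) at least 2-fold lower. Differences of 4-fold or more were seen in 42 genes that were higher and 60 that were lower. The counting interval lay wholly beyond 2-fold for 311 of the 396 and for 516 of the 635. With library totals in place of TMM the split turned to 836 higher (11.9%) and 302 lower (4.3%) of 7017 genes, so the balance between the directions rests on the scaling. Among the cells without any UMI of the cycling genes MKI67, TOP2A, CDK1, CCNB2, PLK1 and TPX2, 1653 at E23 and 1194 at E18, 535 genes (7.71%) were higher and 591 (8.52%) lower of 6939. Since the filter is on the mean, a gene low at one stage can pass through the other: 99 of the 396 higher genes were under 20 CPM at E18 and 167 of the 635 lower genes under 20 CPM at E23. Of the 396 higher genes, 376 were past 2-fold in the cells without cycling genes too, as were 482 of the 635 lower ones. Those cells are part of the PAX7 cells whose ratios chose these genes. This overlap was thus in part set by that choice.

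**Figure D1:**
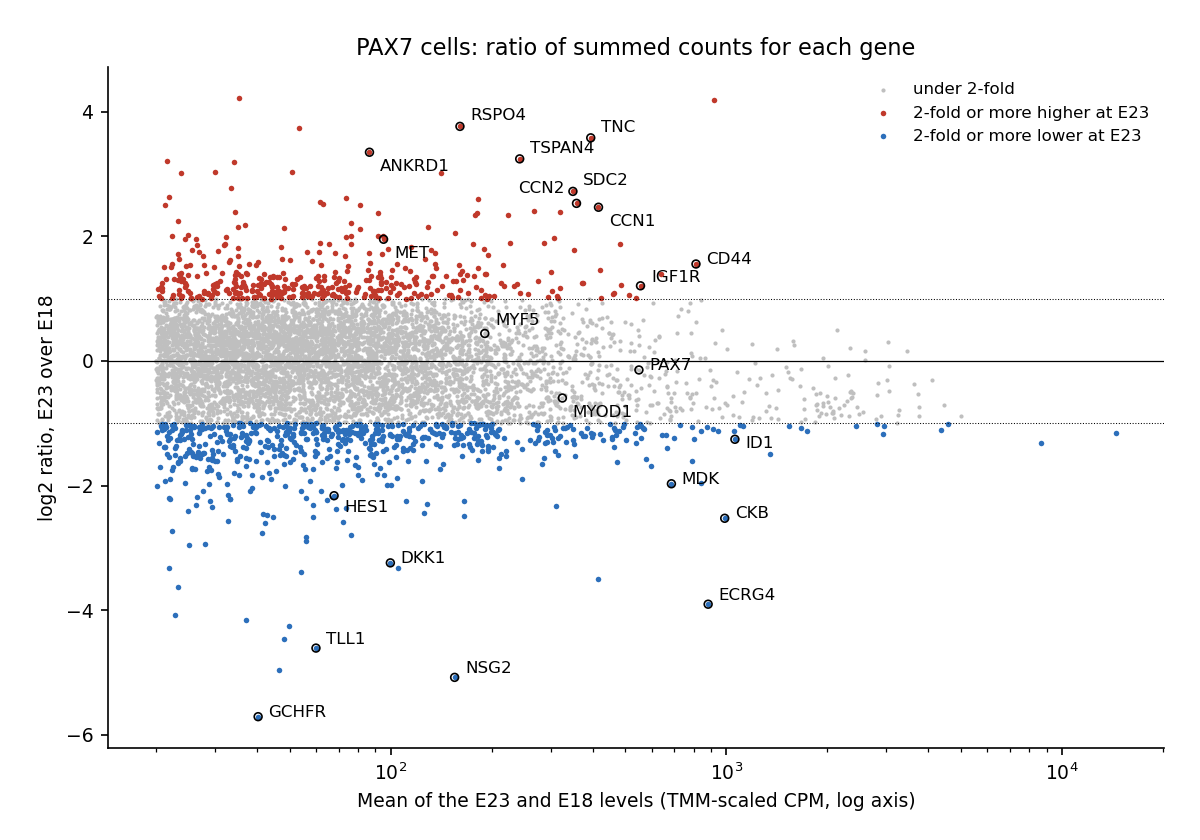
Each point is a gene of the PAX7 cells at 20 CPM or more, with the mean of the E23 and E18 levels in TMM-scaled CPM on a log axis and the log2 ratio of E23 over E18 on the vertical axis. Red points are the 396 genes at least 2-fold higher at E23, blue points the 635 at least 2-fold lower, dotted lines mark 2-fold, and circled genes are named in the text: TNC, RSPO4 and TSPAN4 stand high, ECRG4 and NSG2 low, and PAX7 near 0.

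The ratios ran with the length of the genes. Spans were taken from the RefSeq annotation of a goose assembly whose symbols match all 25487 of the files, and the 7009 genes were divided into 5 bins of like number. The median log2 ratio of the PAX7 cells was -0.70 in the bin of the shortest genes, then -0.29, 0.06 and 0.31, and 0.45 in that of the longest. The fibro-adipogenic cells of the same libraries (DCN at 2 UMIs or more, without PAX7, MYOG and PTPRC, 1869 at E23 and 2115 at E18) ran between -0.74 and 0.37 over the same bins. The myocytes (MYOG at 2 UMIs or more, without PAX7 and PTPRC, 597 at E23 and 1656 at E18) ran between -0.85 and 0.39. The trend was thus present in all 3 kinds of cell. When the median of genes of like span was taken off each ratio, 184 of the 396 higher genes and 227 of the 635 lower genes were still past 2-fold, and this value is given below beside named genes that it brings under 2-fold and beside the lists described. Beyond this adjustment, the part of gene length in the results was not tested.

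Many of the differences were shared with the neighbouring cells. Of the 396 genes higher at E23, 382 had a ratio above 0 in fibro-adipogenic cells and 169 were past 2-fold there. Of the 635 lower genes, 615 had a ratio below 0 in fibro-adipogenic cells and 439 were past 2-fold there. The median log2 ratio in fibro-adipogenic cells was -0.10, and the share of all genes above or below 0 there was not counted. Of the 6750 genes at 20 CPM in fibro-adipogenic cells, 3.88% were past 2-fold higher and 9.61% lower. These percentages are not an exact background, since some of the 396 and 635 genes were under 20 CPM there. In the myocytes 4.58% of 6676 genes were past 2-fold higher and 15.1% lower. Over the 6372 genes at 20 CPM in both PAX7 and fibro-adipogenic cells, the PAX7 ratio exceeded the fibro-adipogenic one by 2-fold or more for 93 genes and fell short of it by as much for 73. LOC136789586 and LOC136789584, which had the highest ratios of all, are ribosomal RNA genes in the annotation. LOC136789584 had 1744 CPM at E23 and 95.6 CPM at E18, and its log2 ratio of 4.19 in PAX7 cells stood beside 4.12 in fibro-adipogenic cells and 3.80 in myocytes.

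The regulators of satellite cell identity moved little beside these. PAX7 itself, which the rule used, had 522 CPM at E23 and 577 CPM at E18. MYF5, an early commitment factor, had 220 CPM at E23 and 162 CPM at E18, a log2 ratio of 0.44 (95% counting interval 0.40 to 0.49). MYOD1, which drives commitment to the myoblast, had 259 CPM at E23 and 391 CPM at E18, a log2 ratio of -0.59 (-0.63 to -0.56). Without the adjustment for gene length, MYF5 and MYOD1 lay on opposite sides of 0 and neither reached 2-fold. The bin medians by gene length ran from -0.70 for the shortest genes to 0.45 for the longest. That range covers all lengths, so it does not show how far either ratio follows the trend with length. The values of MYF5 and MYOD1 with gene length taken off are not given here. MYF6, a later muscle regulator, had a log2 ratio of 0.37. CALCR, the calcitonin receptor of quiescent satellite cells in the mouse, had 25.5 CPM at E23 and 26.7 CPM at E18, a log2 ratio of -0.06.

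Counted by cell, MYF5 was again the more frequent at E23. After each cell was thinned to 4000 UMIs, MYF5 was detected in 48.9% of PAX7 cells at E23 (exact binomial interval 47.4 to 50.5%) and 38.8% at E18 (37.1 to 40.6%). MYOD1 was detected in 46.2% at E23 (44.6 to 47.7%) and 48.2% at E18 (46.5 to 50.0%), a gap of -2.08 percentage points (-4.43 to 0.28). Some settings gave a wider gap with an interval below 0: -4.59 (-6.82 to -2.37) at 2000 UMIs and -3.37 (-5.52 to -1.22) with cells of 1 UMI of PAX7 or more. Without the highest doublet scores it was -3.84 (-6.30 to -1.37). Only the gap at 2000 UMIs lay outside the main interval. The remaining settings stayed near the main gap, with intervals that spanned no difference. The gap was -2.29 (-5.17 to 0.597) in cells chosen after thinning and -2.002 (-4.81 to 0.806) with 4 UMIs of PAX7 or more. Without thinning it was -1.58 (-3.78 to 0.635). The fibro-adipogenic cells, which should lack both, give the background of free RNA. There MYF5 was found in 4.78% at E23 and 3.03% at E18, and MYOD1 in 4.61% at E23 and 2.34% at E18, with median depths of 14691 UMIs at E23 and 17582 at E18 before thinning. Both shares in PAX7 cells were thus well above that background. Unthinned, MYF5 was detected in 74.6% of PAX7 cells at E23 and 63.6% at E18, and MYOD1 in 64.8% at E23 and 66.3% at E18. Thinning left out 110 cells at E23 and 87 at E18 that had fewer UMIs.

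**Figure D2:**
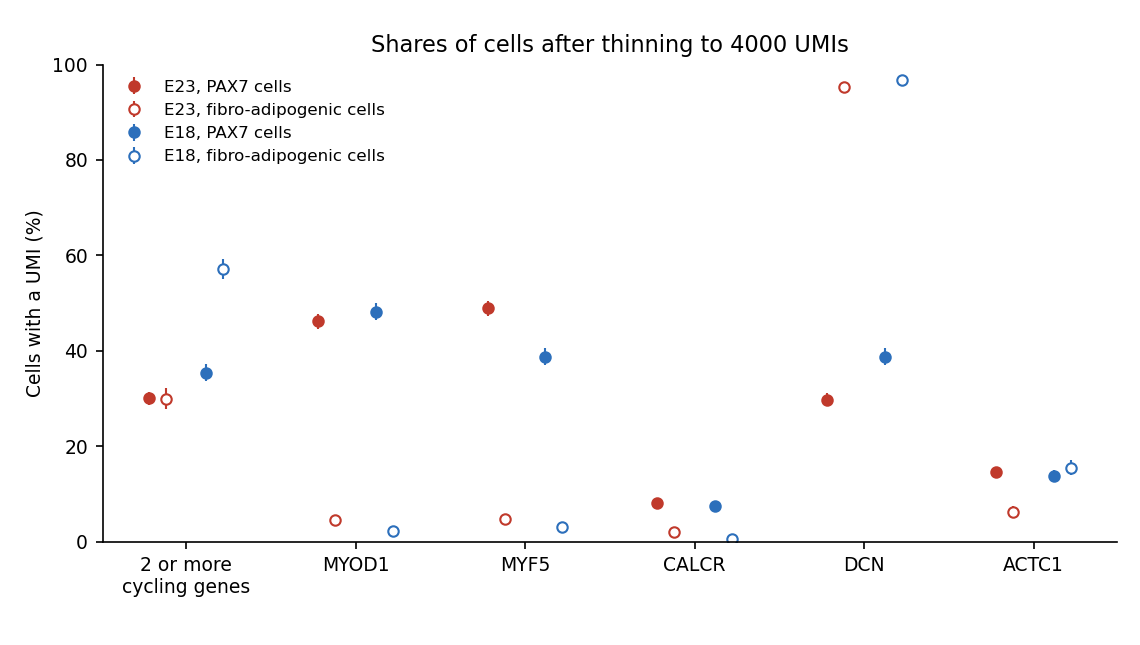
The vertical axis gives the percentage of cells with a UMI of the gene after each cell was thinned to 4000 UMIs, for cells with 2 or more of 6 cycling genes and for MYOD1, MYF5, CALCR, DCN and ACTC1; E23 is in red on the left of each pair and E18 in blue on the right. Filled points are PAX7 cells, open points fibro-adipogenic cells of the same library, and bars exact 95% binomial intervals: MYF5 stands at 48.9% at E23 and 38.8% at E18 in PAX7 cells, while DCN, the gene that chose the fibro-adipogenic cells, stands at 29.8% at E23 and 38.8% at E18 in PAX7 cells.

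The wider satellite cell list held 45 genes and 35 at 20 CPM, of which 4 were past 2-fold higher and 5 lower, with a median log2 ratio of 0.25. Against these and the unadjusted counts of the lists below stand 5.65% higher and 9.06% lower and a median of -0.01 over all 7009 genes. Against the counts adjusted for gene length stand 276 genes higher and 339 lower of the 7009 after that adjustment. In this list the adjusted counts were 4 higher and 4 lower, with a median of 0.085. Adjusted counts are taken anew over each list and can include genes that were not past 2-fold before. The 5 genes that were lower before the adjustment include transcription factors and a cadherin, and 2 of the 5 were under 20 CPM at E23. DACH2, a nuclear partner of EYA2, had 19.7 CPM at E23 and 97.4 CPM at E18, a log2 ratio of -2.31. In the cells without cycling genes its log2 ratio was -2.70. PAX3, the factor of migrating precursors, had 22.4 CPM at E23 and 49.9 CPM at E18, and CDH4, the cadherin, had 12.7 CPM at E23 and 30.6 CPM at E18. After gene length was taken off, PAX3 stood at -1.60.

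On the other side of the same list stood MET, the receptor for hepatocyte growth factor, which wakes quiescent satellite cells in the mouse. MET had 151 CPM at E23 and 39.1 CPM at E18, a log2 ratio of 1.95 (1.87 to 2.04), and was found in 41.8% of thinned cells at E23 and 12.3% at E18, against 14.1% at E23 and 1.07% at E18 in fibro-adipogenic cells. In fibro-adipogenic cells its log2 ratio was 4.27, with 46.2 CPM at E23 and 2.39 CPM at E18. MET was thus more abundant in PAX7 cells than in fibro-adipogenic cells at both stages. CAV1, the caveolar coat protein, had 105 CPM at E23 and 31.6 CPM at E18. EYA2, a transcriptional cofactor, had 141 CPM at E23 and 62.6 CPM at E18. MEF2C, a muscle transcription factor, had 91.1 CPM at E23 and 43.2 CPM at E18, and with gene length taken off EYA2 and MEF2C stood at 0.73 and 0.62.

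Matrix genes held several of the largest differences. Of the basement membrane and niche matrix list, 37 of 53 genes in the files were at 20 CPM, and 8 were at least 2-fold higher and 3 lower, with a median of 0.29. The adjustment for gene length turned this balance to 4 higher and 7 lower, with a median of 0.026. TNC, which encodes tenascin-C, a matrix glycoprotein of growing and regenerating muscle, had 728 CPM at E23 and 60.9 CPM at E18, a log2 ratio of 3.58 (3.52 to 3.64). It was detected in 67.9% of thinned cells at E23 and 11.8% at E18, against 91.9% at E23 and 58.7% at E18 in fibro-adipogenic cells. The fibro-adipogenic cells held more of it, with 1569 CPM at E23 and 428 CPM at E18, and the myocytes less at both stages, with 176 CPM at E23 and 43.5 CPM at E18. THBS1, a matricellular thrombospondin, had 313 CPM at E23 and 51.5 CPM at E18. The laminin chain LAMA3 had 42.2 CPM at E23 and 5.23 CPM at E18. LAMA5, a laminin chain of the satellite cell niche, had 133 CPM at E23 and 39.8 CPM at E18. All 4 of these genes were higher in fibro-adipogenic cells as well, with log2 ratios of 1.87 for TNC, 1.43 for THBS1, 2.81 for LAMA3 and 1.08 for LAMA5. GPC4, a glypican, had 243 CPM at E23 and 93.7 CPM at E18, with a log2 ratio of 1.38 in PAX7 cells beside 0.04 in fibro-adipogenic cells, and of 0.93 in PAX7 cells when gene length was taken off.

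The 3 matrix genes that were lower were a laminin chain, a calcium-binding matrix protein and a fibulin. LAMA4, the laminin chain, had 11.6 CPM at E23 and 35.4 CPM at E18. SMOC2, the calcium-binding protein, had 37.6 CPM at E23 and 122 CPM at E18. EFEMP1, the fibulin, had 90.7 CPM at E23 and 274 CPM at E18. LAMA4 was lower in fibro-adipogenic cells too, at -2.04, whereas SMOC2 stood at -0.24 and EFEMP1 at -0.59 there.

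Of the matrix protease and inhibitor list, 3 of 20 genes were higher and 1 lower, with a median of 0.07, against 4 higher, 3 lower and a median of 0.37 after the adjustment for gene length. ADAMTSL3, a matrix protein of the ADAMTS family, had 154 CPM at E23 and 29.8 CPM at E18. ADAMTS2, which trims procollagen, had 239 CPM at E23 and 87.9 CPM at E18. LOXL2, which crosslinks collagen, had 64.2 CPM at E23 and 24.9 CPM at E18, with a log2 ratio of 1.36 in PAX7 cells and 0.23 in fibro-adipogenic cells. The lower one was HTRA1, a secreted serine protease, with 38.6 CPM at E23 and 183 CPM at E18.

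Of the integrins and adhesion list, 6 genes were higher and 2 lower of 22 at 20 CPM, with a median of 0.47, against 6 higher, 5 lower and a median of 0.34 after the adjustment for gene length. SDC2, a heparan sulfate proteoglycan of the cell surface, had 607 CPM at E23 and 91.9 CPM at E18, a log2 ratio of 2.72 (2.67 to 2.77). CD44, the hyaluronan receptor, had 1212 CPM at E23 and 412 CPM at E18. ITGA6, a laminin-binding integrin subunit, had 179 CPM at E23 and 50.5 CPM at E18. ITGA3, another such subunit, had 42.2 CPM at E23 and 13.1 CPM at E18. CDH13, a cadherin anchored in the membrane by a lipid, had 544 CPM at E23 and 159 CPM at E18. The lower genes were 2 cadherins, CDH4, given above, and CDH11, which is a fibro-adipogenic marker too, with 41.9 CPM at E23 and 97.7 CPM at E18.

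Several genes outside the lists belong with these by function. TSPAN4, a tetraspanin that organises membrane proteins, had 439 CPM at E23 and 46.3 CPM at E18. IGSF9B, an adhesion protein of the immunoglobulin family, had 99.4 CPM at E23 and 7.43 CPM at E18. XIRP1, an actin-binding protein of muscle attachments, had 53.3 CPM at E23 and 6.48 CPM at E18. They were among the 20 highest ratios, and were past 4-fold in the cells without cycling genes too. There the log2 ratio of TSPAN4 was 3.68, that of IGSF9B 4.29 and that of XIRP1 2.91, beside 3.93 for TNC and 3.11 for SDC2.

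The genes with the highest ratios included others outside the lists. GLIS3, a zinc finger transcription factor, had 90.4 CPM at E23 and 10.996 CPM at E18. ENC1, an actin-binding kelch protein, had 127 CPM at E23 and 20.7 CPM at E18. DCLK2, a kinase that binds microtubules, had 105 CPM at E23 and 17.9 CPM at E18, and GRID1, a glutamate receptor subunit known from neurons, had 38.9 CPM at E23 and 4.20 CPM at E18.

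CCN1 and CCN2, matricellular proteins, and ANKRD1, an ankyrin protein of nucleus and sarcomere, are textbook targets of the YAP and TEAD factors that respond to stretch and adhesion. CCN1 had 705 CPM at E23 and 127 CPM at E18, and CCN2 had 610 CPM at E23 and 106 CPM at E18. ANKRD1 had 158 CPM at E23 and 15.5 CPM at E18, and was detected in 24.4% of thinned cells at E23 and 2.71% at E18, against 5.61% at E23 and 1.71% at E18 in fibro-adipogenic cells. Their log2 ratios were 2.47, 2.53 and 3.35 in PAX7 cells, beside 0.83, 1.08 and 2.20 in fibro-adipogenic cells. The fibro-adipogenic cells held more CCN1, with 1475 CPM at E23 and 832 CPM at E18, and more CCN2, with 1410 CPM at E23 and 665 CPM at E18. The myocytes held far more ANKRD1, with 1939 CPM at E23 and 1184 CPM at E18.

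CCN1 and CCN2 were also in the immediate early list, genes that switch on within minutes of a stimulus, of which 8 of 15 were at least 2-fold higher and 3 lower, with a median of 1.15, against 9 higher, 1 lower and a median of 1.73 after the adjustment for gene length. Of the 8 higher genes, 3 were under 20 CPM at E18 and passed the filter through their E23 level. EGR1, a zinc finger factor, had 299 CPM at E23 and 91.5 CPM at E18. Its relative EGR3 had 35.7 CPM at E23 and 8.94 CPM at E18. IER2 had 50.6 CPM at E23 and 13.8 CPM at E18. FOS and KLF6, transcription factors of the same response, were higher as well, with log2 ratios of 1.63 and 1.39. The list was not uniform. JUND, a subunit of the AP-1 factor, had 126 CPM at E23 and 260 CPM at E18. SOCS3, the cytokine feedback inhibitor, had 44.96 CPM at E23 and 164 CPM at E18. BTG2, an antiproliferative gene, had 49.6 CPM at E23 and 112 CPM at E18, and with gene length taken off BTG2 and JUND were at -0.49 and -0.23.

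Of the growth factor and receptor kinase list, 5 genes were higher and none lower of 20 at 20 CPM, with a median of 0.33, against 4 higher, 1 lower and a median of 0.29 after the adjustment for gene length. Beside MET, VEGFA, the endothelial growth factor, had 118 CPM at E23 and 29.7 CPM at E18. FGF2, a mitogen of satellite cells, had 167 CPM at E23 and 61.7 CPM at E18, with a log2 ratio of 1.44 over all PAX7 cells and of 2.49 in those without cycling genes. FGF10, a limb growth factor, had 123 CPM at E23 and 49.7 CPM at E18, and was more abundant in fibro-adipogenic cells, with 453 CPM at E23 and 213 CPM at E18. SPRED1, an inhibitor of the kinase pathway below these receptors, had 202 CPM at E23 and 96.5 CPM at E18. After the adjustment for gene length FGF10 stood at 0.84 and SPRED1 at 0.60.

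Of the 13 insulin-like growth factor and developmental timing genes at 20 CPM, 2 were higher and 2 lower, against none higher and 2 lower after the adjustment for gene length. IGF1R, the receptor, had 775 CPM at E23 and 336 CPM at E18, and was found in 93.97% of thinned cells at E23 and 65.8% at E18, against 83.7% at E23 and 53.4% at E18 in fibro-adipogenic cells. IRS1, its docking protein, had 51.2 CPM at E23 and 21.3 CPM at E18. The lower genes were the binding proteins IGFBP3, with 11.7 CPM at E23 and 46.04 CPM at E18, and IGFBP7, with 27.6 CPM at E23 and 75.9 CPM at E18. Others of that family were not called: IGFBP5 had 153 CPM at E23 and 94.9 CPM at E18, and IGFBP4 had 199 CPM at E23 and 250 CPM at E18. Taking gene length off left IGF1R at 0.77 and IRS1 at 0.93. HMGA2, a chromatin protein of embryonic cells, had 416 CPM at E23 and 210 CPM at E18 and fell just short of 2-fold, and IGF2BP1, an RNA-binding protein of embryonic cells, had a log2 ratio of 0.38.

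Several secreted factors were among the lower genes. ECRG4, which encodes the small secreted peptide augurin, had 111 CPM at E23 and 1655 CPM at E18, a log2 ratio of -3.90 (-3.94 to -3.87), and was detected in 30.9% of thinned cells at E23 and 90.2% at E18, against 19.8% at E23 and 57.2% at E18 in fibro-adipogenic cells. MDK, the heparin-binding cytokine midkine, had 279 CPM at E23 and 1094 CPM at E18. Its relative pleiotrophin, PTN, had 22.3 CPM at E23 and 115 CPM at E18. All 3 were lower in fibro-adipogenic cells too, with log2 ratios of -2.64 for ECRG4, -1.40 for MDK and -1.71 for PTN. CKB, the brain form of creatine kinase, had 293 CPM at E23 and 1686 CPM at E18. Its log2 ratio was -2.52 in PAX7 cells and -4.51 in myocytes but 0.14 in fibro-adipogenic cells, where it was at 124 CPM at E23 and 112 CPM at E18.

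Several of the lowest ratios belonged to genes close to absent from the PAX7 cells at E23. GCHFR, a regulator of the enzyme that starts tetrahydrobiopterin synthesis, had 1.51 CPM at E23 and 79.1 CPM at E18, a log2 ratio of -5.71 (-6.03 to -5.41). NSG2, an endosomal protein known from neurons, had 8.92 CPM at E23 and 301 CPM at E18, and was detected in 3.05% of thinned cells at E23 and 45.6% at E18, against 0.389% at E23 and 4.64% at E18 in fibro-adipogenic cells. TLL1, a tolloid protease that processes matrix proteins, had 4.72 CPM at E23 and 115 CPM at E18. The log2 ratio of TLL1 was -4.61 in PAX7 cells beside 0.16 in fibro-adipogenic cells, where it held 37.8 CPM at E23 and 33.7 CPM at E18. MFAP2, a microfibril protein, had 4.20 CPM at E23 and 92.1 CPM at E18. SPON2, a spondin of the matrix, had 4.96 CPM at E23 and 94.8 CPM at E18. ENPP2, the enzyme autotaxin, had 19.2 CPM at E23 and 133 CPM at E18. Of the further low ratios, RARRES1, a membrane protein named for its response to retinoids, had 3.93 CPM at E23 and 70.1 CPM at E18. AKR1D1, a steroid reductase, had 3.49 CPM at E23 and 43.0 CPM at E18. CYTL1, a small secreted protein, had 19.2 CPM at E23 and 192 CPM at E18, and PLAC9, another, had 4.00 CPM at E23 and 39.8 CPM at E18. In the cells without cycling genes the log2 ratio was -5.63 for GCHFR, -4.76 for NSG2 and -4.77 for TLL1.

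Wnt genes lay on both sides. Of 20 genes of the list at 20 CPM, 3 were at least 2-fold higher and 5 lower, with a median of -0.06, against 4 higher, 5 lower and a median of -0.17 after the adjustment for gene length. Before the adjustment, 1 of the 3 higher genes was under 20 CPM at E18 and 2 of the 5 lower genes under 20 CPM at E23. The R-spondins RSPO4 and RSPO3, which raise the sensitivity of cells to Wnt, were higher. RSPO4, which is not in the list and is named for its rank, had 300 CPM at E23 and 22.0 CPM at E18, a log2 ratio of 3.76 (3.66 to 3.87), and was found in 40.5% of thinned cells at E23 and 4.08% at E18, against 67.8% at E23 and 22.1% at E18 in fibro-adipogenic cells. Its level in fibro-adipogenic cells was 916 CPM at E23 and 190 CPM at E18. RSPO3 had 112 CPM at E23 and 34.9 CPM at E18. NOTUM, an enzyme that inactivates Wnt, and FZD6, a frizzled receptor, were higher too. NOTUM had 126 CPM at E23 and 48.8 CPM at E18, with a log2 ratio of 1.37 in PAX7 cells and -0.53 in fibro-adipogenic cells, and FZD6 had 28.9 CPM at E23 and 12.7 CPM at E18.

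The Wnt genes that were lower include secreted inhibitors and receptors. DKK1, which blocks the LRP coreceptors and is also outside the list, had 19.1 CPM at E23 and 181 CPM at E18, a log2 ratio of -3.24 (-3.33 to -3.15). DKK3, a relative of it, had 15.1 CPM at E23 and 61.9 CPM at E18. FRZB, which binds Wnt outside the cell, had 28.7 CPM at E23 and 114 CPM at E18. DKK1 had a log2 ratio of -3.57 and FRZB one of -1.40 in fibro-adipogenic cells. ROR2, a receptor of WNT5A, had 30.8 CPM at E23 and 94.4 CPM at E18. NKD1, a feedback inhibitor inside the cell, had 11.4 CPM at E23 and 35.0 CPM at E18. FZD2, a frizzled receptor, had 44.7 CPM at E23 and 92.5 CPM at E18, a log2 ratio of -1.05 that stood at -0.24 once gene length was taken off.

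Notch genes lay on both sides too, with 3 of 16 higher and 3 lower and a median of 0.63, against 1 higher, 1 lower and a median of 0.25 after the adjustment for gene length. Of the 3 higher genes, 2 were under 20 CPM at E18 and passed the filter through their E23 level. JAG1, a ligand, had 48.1 CPM at E23 and 19.99 CPM at E18. JAG2, another ligand, had 35.4 CPM at E23 and 11.4 CPM at E18. NEURL1B, an E3 ligase for such ligands, had 147 CPM at E23 and 61.3 CPM at E18. The 3 lower genes are known targets of the pathway. HES1, a repressor, had 24.8 CPM at E23 and 111 CPM at E18, a log2 ratio of -2.16 (-2.25 to -2.08). HEY1, the repressor linked to satellite cell quiescence in the mouse, had 105 CPM at E23 and 285 CPM at E18. NRARP, a feedback target, had 25.3 CPM at E23 and 67.4 CPM at E18, while HEYL, a relative of HEY1, was low at both stages, with 6.87 CPM at E23 and 8.57 CPM at E18. The receptors NOTCH1 and NOTCH2 had log2 ratios of 0.39 and 0.72. The log2 ratios of JAG1 and NEURL1B were 1.27 and 1.26 in PAX7 cells beside -0.44 and -0.53 in fibro-adipogenic cells. With gene length taken off, HEY1 stood at -0.76, NRARP at -0.60, JAG1 at 0.97 and NEURL1B at 0.80, and HES1 and JAG2 stayed past 2-fold at -1.35 and 1.19.

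The TGF-beta, BMP and myostatin list had 4 genes higher and 4 lower of 28, with a median of 0.34, against 3 higher, 2 lower and a median of 0.12 after the adjustment for gene length. Of the 4 higher genes, 2 were under 20 CPM at E18 and passed the filter through their E23 level. The ligand TGFB2 had 694 CPM at E23 and 333 CPM at E18. LTBP1, which stores latent ligand in the matrix, had 203 CPM at E23 and 68.9 CPM at E18. INHBA, an activin subunit, had 36.0 CPM at E23 and 13.8 CPM at E18, and the receptor TGFBR2 had 34.0 CPM at E23 and 13.2 CPM at E18. These 4 were the ones that were higher, and the 4 lower ones were ID1, ID4, BMPR1B and BAMBI. ID1, a target of BMP signals, had 626 CPM at E23 and 1496 CPM at E18. ID4, a relative of it, had 94.7 CPM at E23 and 255 CPM at E18. The receptor BMPR1B had 54.0 CPM at E23 and 131 CPM at E18, and the decoy receptor BAMBI had 48.8 CPM at E23 and 115 CPM at E18. Taking gene length off left ID1 at -0.45, ID4 at -0.68, BAMBI at -0.56, TGFB2 at 0.61 and TGFBR2 at 0.90.

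**Figure D3:**
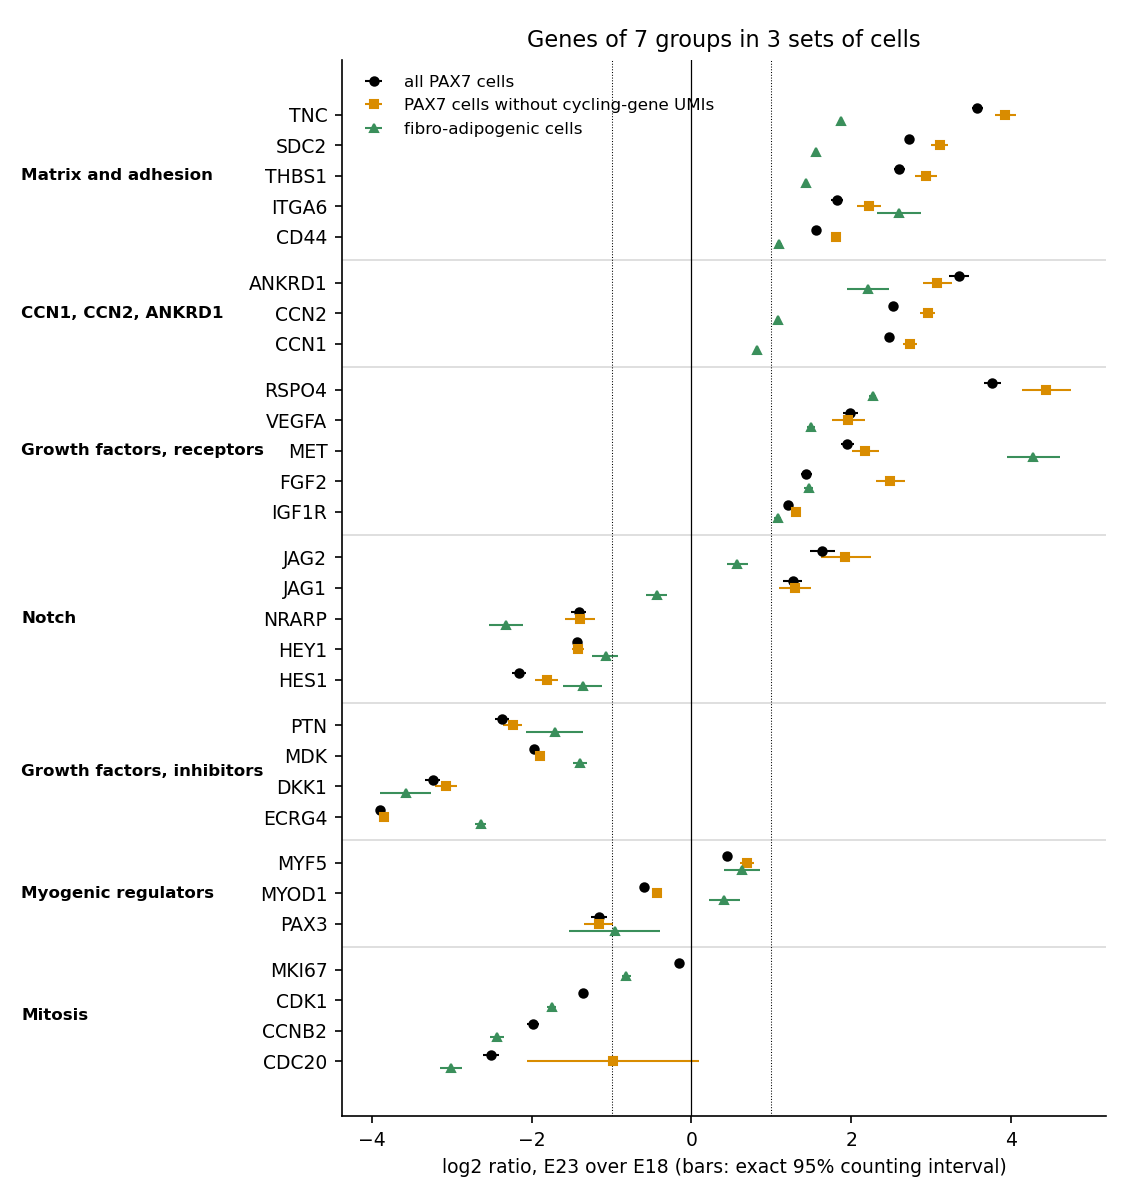
Rows are genes of 7 groups and the horizontal axis is the log2 ratio of E23 over E18, with black circles for all PAX7 cells, orange squares for PAX7 cells without a UMI of the 6 cycling genes and green triangles for fibro-adipogenic cells; bars are exact 95% counting intervals and dotted lines mark 2-fold. TNC stands at 3.58, 3.93 and 1.87 in these 3 sets and JAG1 at 1.27, 1.30 and -0.44, and MKI67, CDK1 and CCNB2 have no orange square because their absence chose those cells.

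Cycling cells made up a smaller share of the PAX7 cells at E23 by the thinned counts. Cells with 2 or more of the 6 cycling genes were 30.0% of PAX7 cells at E23 (28.7 to 31.5%) and 35.5% at E18 (33.8 to 37.2%). Without thinning the shares were 43.4% at E23 and 44.8% at E18, a gap of -1.32 percentage points (-3.63 to 0.989). Among cells chosen after thinning to 4000 UMIs they were 29.0% at E23 and 31.1% at E18, a gap of -2.08 (-4.75 to 0.575). Both intervals spanned no difference, so the gap depends on how depth is treated and on how the cells are chosen. In fibro-adipogenic cells the thinned share was 29.9% at E23 and 57.2% at E18. Within the mitosis list, 9 of 26 genes were at least 2-fold lower and none higher, with a median of -0.77, against 9 lower, none higher and a median of -0.58 after the adjustment for gene length. Of the 9 lower genes before the adjustment, 3 were under 20 CPM at E23 and passed the filter through their E18 level. CDC20, which triggers the exit from metaphase, had 17.5 CPM at E23 and 99.5 CPM at E18. PTTG1, the securin that holds sister chromatids together, had 24.1 CPM at E23 and 123 CPM at E18. CCNB2, a mitotic cyclin, had 39.4 CPM at E23 and 156 CPM at E18. CDK1, its kinase, had 92.5 CPM at E23 and 237 CPM at E18, while MKI67, the general marker of cycling cells, had 187 CPM at E23 and 209 CPM at E18. The log2 ratio of MKI67 was thus -0.16 and that of TOP2A, a topoisomerase of dividing cells, -0.48. AURKA, a kinase of the spindle poles, had 40.4 CPM at E23 and 118 CPM at E18, a log2 ratio of -1.54 over all PAX7 cells. In those without cycling genes its log2 ratio was -0.06 (-0.71 to 0.62). In the PAX7 cells without cycling genes the 20 remaining mitosis genes had a median of 0.40, against -0.63 for the same genes over all PAX7 cells. Those cells were chosen by the absence of 6 mitosis genes, so a drop in the others could not be read from them.

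Of the DNA replication list, 2 of 25 genes were lower and none higher, with a median of -0.07. After the adjustment for gene length 2 were higher and 1 lower, with a median of 0.22. PRIM1, the catalytic subunit of primase, had 40.4 CPM at E23 and 142 CPM at E18. DUT, which keeps uracil out of DNA, had 109 CPM at E23 and 239 CPM at E18, and stood at -0.88 once gene length was taken off.

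Of the 6 cyclin D and CDK4/6 genes at 20 CPM, 2 were higher and none lower, with 1 left after the adjustment for gene length. CDK6, a kinase of G1, had 304 CPM at E23 and 132 CPM at E18. MYC, which drives growth, had 183 CPM at E23 and 76.2 CPM at E18. CCND1 and CCND2, the D-type cyclins, had log2 ratios of 0.49 and -0.48 and were not past 2-fold. Of the inhibitors of the cycle, CDKN1C, or p57, had 22.4 CPM at E23 and 45.5 CPM at E18. CDKN1B, or p27, had 41.2 CPM at E23 and 61.5 CPM at E18. CDKN1A, or p21, was low, with 3.02 CPM at E23 and 1.89 CPM at E18. The adjustment for gene length left CDKN1C at -0.21 and CDK6 at 0.75.

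Of the quiescence and growth arrest list, 6 of 20 genes were at least 2-fold lower and 1 higher, with a median of -0.28. With gene length taken off, 2 genes were lower and 1 other gene higher, and the median turned to 0.17. BTG1, an antiproliferative gene, had 238 CPM at E23 and 557 CPM at E18. DDIT4, an inhibitor of mTOR, had 19.3 CPM at E23 and 77.6 CPM at E18. The one that was higher before the adjustment was LRIG1, which restrains receptor kinases, with 84.7 CPM at E23 and 36.9 CPM at E18. Once gene length was taken off the log2 ratio was -0.47 for BTG1 and 0.75 for LRIG1, and -1.20 for DDIT4.

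Most respiratory chain genes had log2 ratios below 0. All 44 genes of the oxidative phosphorylation list were at 20 CPM, 40 had a ratio below 0 and 9 were at least 2-fold lower, with a median of -0.74, beside -0.71 in fibro-adipogenic cells and -0.88 in myocytes. CYC1, a subunit of complex III, had 165 CPM at E23 and 413 CPM at E18. SDHB, of complex II, had 192 CPM at E23 and 474 CPM at E18. COX6A1, of complex IV, had 403 CPM at E23 and 921 CPM at E18. Of complex I, NDUFV2 showed a like gap, with 182 CPM at E23 and 414 CPM at E18. UQCRFS1, of complex III, had 137 CPM at E23 and 337 CPM at E18. With gene length taken off, the median of the list was -0.14 and 2 genes were past 2-fold lower, while CYC1 stood at -0.57, COX6A1 at -0.38 and UQCRFS1 at -0.62. Glycolysis had a median of 0.04 with 1 of 12 genes past 2-fold, LDHB, a lactate dehydrogenase subunit, which had 58.7 CPM at E23 and 149 CPM at E18. In the list of lipid uptake and oxidation, 2 of 18 genes were higher and 1 lower, against 3 higher and 1 lower after the adjustment for gene length. ACADL, which oxidises long fatty acids, had 37.4 CPM at E23 and 82.4 CPM at E18. HMGCS1, an enzyme of cholesterol synthesis, had 214 CPM at E23 and 105 CPM at E18, and SCD, which makes unsaturated fatty acids, had 121 CPM at E23 and 58.4 CPM at E18. Of the 16 oxidative and integrated stress genes, TXNRD1 alone was past 2-fold, and 2 were higher after the adjustment for gene length. TXNRD1, a thioredoxin reductase, had 38.4 CPM at E23 and 8.11 CPM at E18, while HMOX1, the heme oxygenase, had 79.6 CPM at E23 and 72.2 CPM at E18.

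Of the HOX and limb identity list, only 9 of 33 genes reached 20 CPM, and 6 of those were at least 2-fold lower. All but HOXC6 of the lower genes, 5 of 6, were under 20 CPM at E23 and passed the filter through their E18 level, so the median of -1.41 over the 9 describes genes that the filter helped to choose. The whole list summed to 603 CPM at E23 and 985 CPM at E18. HOXC9, which gives position along the body axis, had 10.6 CPM at E23 and 44.6 CPM at E18. HOXC10, a gene of the hind limb, had 15.5 CPM at E23 and 55.2 CPM at E18. HOXA5 had 14.8 CPM at E23 and 43.8 CPM at E18, and HOXA9 had 15.9 CPM at E23 and 42.9 CPM at E18. PITX1, the selector gene of the hind limb, had 13.7 CPM at E23 and 36.6 CPM at E18. Genes above 20 CPM at both stages stood nearer to 0. HOXC6 had 20.8 CPM at E23 and 47.9 CPM at E18. TBX3 had 139 CPM at E23 and 218 CPM at E18, and TBX15 had 135 CPM at E23 and 162 CPM at E18. Taking gene length off left HOXA5 at -0.89 and HOXA9 at -0.68, and the 9 genes with a median of -0.89.

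Genes of contraction were low and mixed, with 4 of 13 higher and 1 lower and a median of 0.29, against 3 higher, 1 lower and a median of 0.74 after the adjustment for gene length. Of the 4 higher genes, 2 were under 20 CPM at E18 and passed the filter through their E23 level. DES, the muscle intermediate filament, had 33.2 CPM at E23 and 11.3 CPM at E18, and was detected in 10.1% of thinned cells at E23 and 2.77% at E18, against 2.94% at E23 and 2.69% at E18 in fibro-adipogenic cells. Its E18 share in PAX7 cells was thus close to that background. DYSF, the membrane repair protein dysferlin, had 33.9 CPM at E23 and 14.9 CPM at E18. TNNT3, a troponin of fast fibres, had 47.0 CPM at E23 and 21.0 CPM at E18. ACTC1, the embryonic sarcomeric actin, had 100 CPM at E23 and 85.2 CPM at E18, and its thinned share was 14.5% of cells at E23 and 13.8% at E18. In fibro-adipogenic cells, which should lack it, ACTC1 was found in 6.22% at E23 and 15.5% at E18, so the E18 share in PAX7 cells was no higher than that background. CKB, given above, was the lower gene of this list. DYSF stood at 0.74 and TNNT3 at 0.98 after the adjustment for gene length.

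Guidance and neural genes moved in both directions, with 5 of 24 higher and 3 lower and a median of 0.31, against 1 higher, 3 lower and a median of -0.062 after the adjustment for gene length. NRXN3, a neurexin of synapses, had 251 CPM at E23 and 31.1 CPM at E18. EPHA4, an ephrin receptor, had 99.7 CPM at E23 and 36.9 CPM at E18, whereas its relative EPHA3 had 18.5 CPM at E23 and 50.4 CPM at E18. NRP1, a receptor of semaphorins and VEGF, had 77.4 CPM at E23 and 36.3 CPM at E18. Its relative NRP2 had 103 CPM at E23 and 42.2 CPM at E18. SEMA3C, a semaphorin that neuropilins bind, had 70.5 CPM at E23 and 31.7 CPM at E18. After the adjustment for gene length NRP1 stood at 0.65, NRP2 at 0.85, SEMA3C at 0.69 and EPHA4 at 0.99.

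Among signals to other cells and hormone genes, few members of short lists were past 2-fold. CSF1, the macrophage growth factor, had 152 CPM at E23 and 37.9 CPM at E18, a log2 ratio of 2.00 in PAX7 cells beside 0.19 in fibro-adipogenic cells. In the retinoid list, 1 of 8 genes was higher and 1 lower, with a median of -0.59. After the adjustment for gene length 1 was higher and 3 lower, with a median of -0.55. ALDH1A3, which makes retinoic acid, had 36.5 CPM at E23 and 12.6 CPM at E18. DHRS3, which opposes it, had 24.6 CPM at E23 and 75.5 CPM at E18. In the thyroid and glucocorticoid list, 1 of 12 genes was higher and 1 lower, and none in either direction after the adjustment for gene length. SLC16A10, a transporter that carries thyroid hormone, had 51.2 CPM at E23 and 21.6 CPM at E18. DIO3, the enzyme that inactivates the hormone, had 50.2 CPM at E23 and 112 CPM at E18. The adjustment for gene length left SLC16A10 at 0.80 and DIO3 at -0.35.

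**Figure D4:**
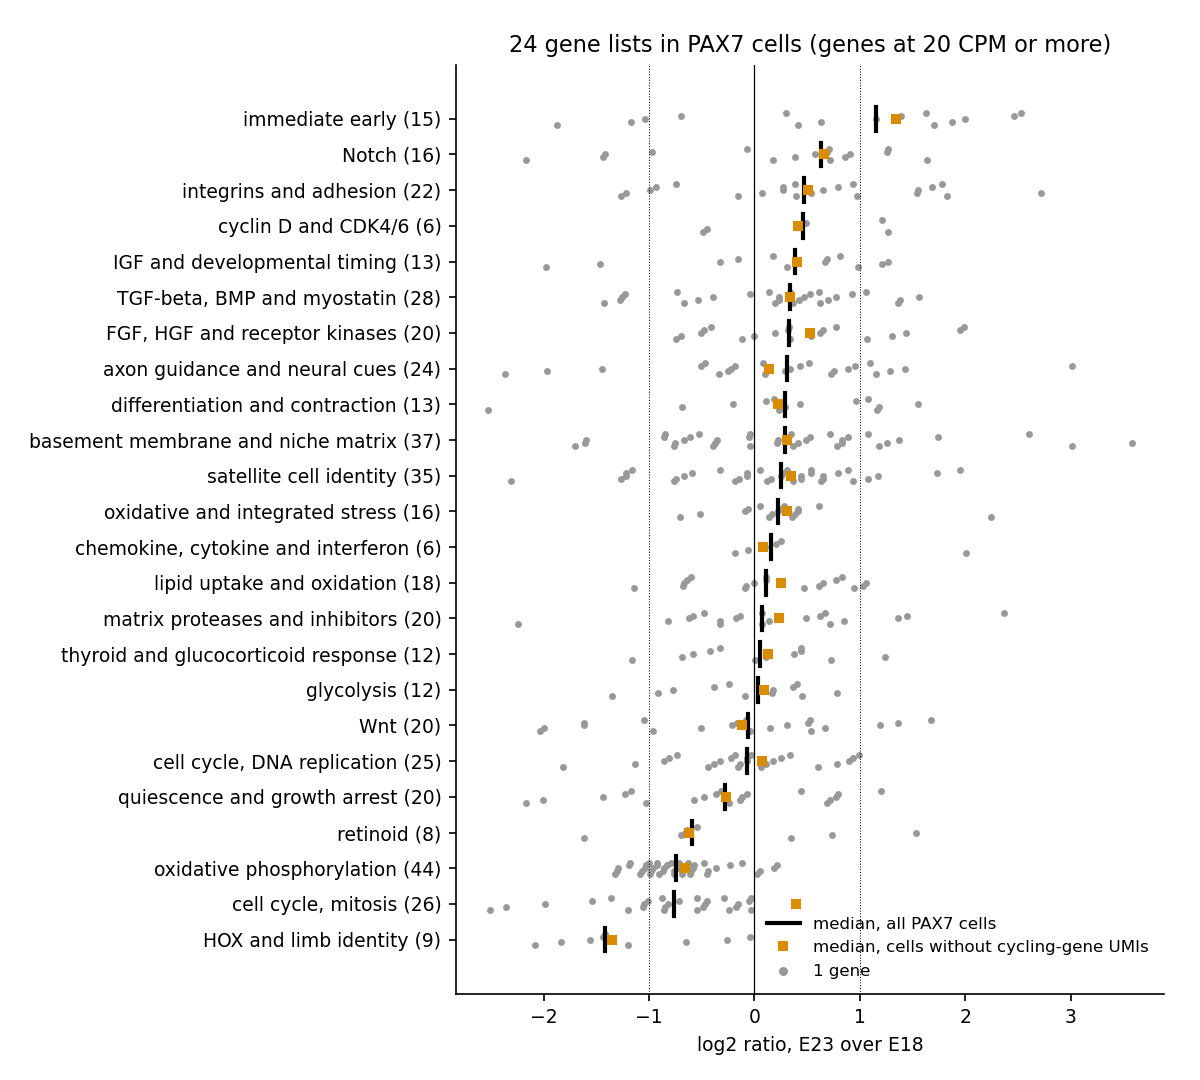
Each grey point is a gene at 20 CPM or more of the list named on the left (its number in brackets), placed by its log2 ratio of E23 over E18 in PAX7 cells; black bars are the median over all PAX7 cells and orange squares the median over those without a UMI of the 6 cycling genes. Immediate early genes have the highest median, 1.15, HOX and limb genes have -1.41 over 9 genes of which 5 passed the filter through E18 alone, and the mitosis list has the widest gap between its medians, -0.77 and 0.40. That gap is not a result about the list, since the absence of 6 mitosis genes chose the cells of the orange squares.

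The PAX7 cells without cycling genes were also split by MYOD1, into 581 cells without it at E23 and 460 at E18, and 832 cells with 2 or more UMIs at E23 and 563 at E18. TNC had a log2 ratio of 4.08 in the cells without MYOD1 and 4.14 in those with it. CCN1 had 2.72 without MYOD1 and 2.74 with it. ECRG4 had -4.13 without MYOD1 and -3.62 with it, and HES1 -1.74 without it and -2.02 with it. Of 144 named genes past 2-fold with a value in both kinds of cell, 143 had the same sign in both, and 14 differed by more than 1 on the log2 scale. Both kinds of cell are part of the PAX7 cells whose ratios chose these genes, so the like sign was in part set by that choice. ANKRD1 had 5.05 in cells without MYOD1 and 2.60 in cells with it. DYSF had 0.17 without MYOD1 and 1.35 with it. ROR2 had -2.08 without MYOD1 and -0.62 with it, and BAMBI -1.72 without it and -0.43 with it. The ratios of the split cells are given without counting intervals. At E18 these cells summed to 4094715 UMIs without MYOD1 and 4838710 with it, against 38221911 over all PAX7 cells.

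The same rule found 3043 PAX7 cells at E13 and 2696 at E15, which place the E18 and E23 levels in a longer series, with 4 libraries scaled together. ANKRD1 had 229, 34.8, 15.2 and 155.4 CPM at E13, E15, E18 and E23. CCN2 had 803, 603, 104 and 602 CPM over the same stages. MET had 93.0, 31.8, 38.6 and 149 CPM. These 3 genes were lowest at E15 or E18 and higher again at E23. TNC, with 184, 86.1, 60.0 and 718 CPM, and RSPO4, with 28.1, 11.4, 21.7 and 296 CPM, were highest at E23. ECRG4 had 568, 787, 1633 and 109 CPM. MDK had 250, 696, 1079 and 275 CPM, and HES1 had 24.5, 73.4, 109 and 24.4 CPM. Each of the 3 had its highest value at E18. NSG2, with 12.0, 158, 297 and 8.80 CPM, and DKK1, with 15.4, 81.1, 178 and 18.8 CPM, showed the same order. For these 5 genes the E23 level was closer to that of E13 than to that of E18. MYOD1 was lower at each later stage, with 903, 860, 386 and 255 CPM. The E18 library was at an extreme of the series for 8 of these 11 genes. Most of the 11 were named for a large ratio of E23 over E18. Both this count and the closeness of E23 to E13 were thus in part set by that choice. The like share over all genes was not counted, and the part of the E18 library in the difference between E23 and E18 was not tested.

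**Figure D5:**
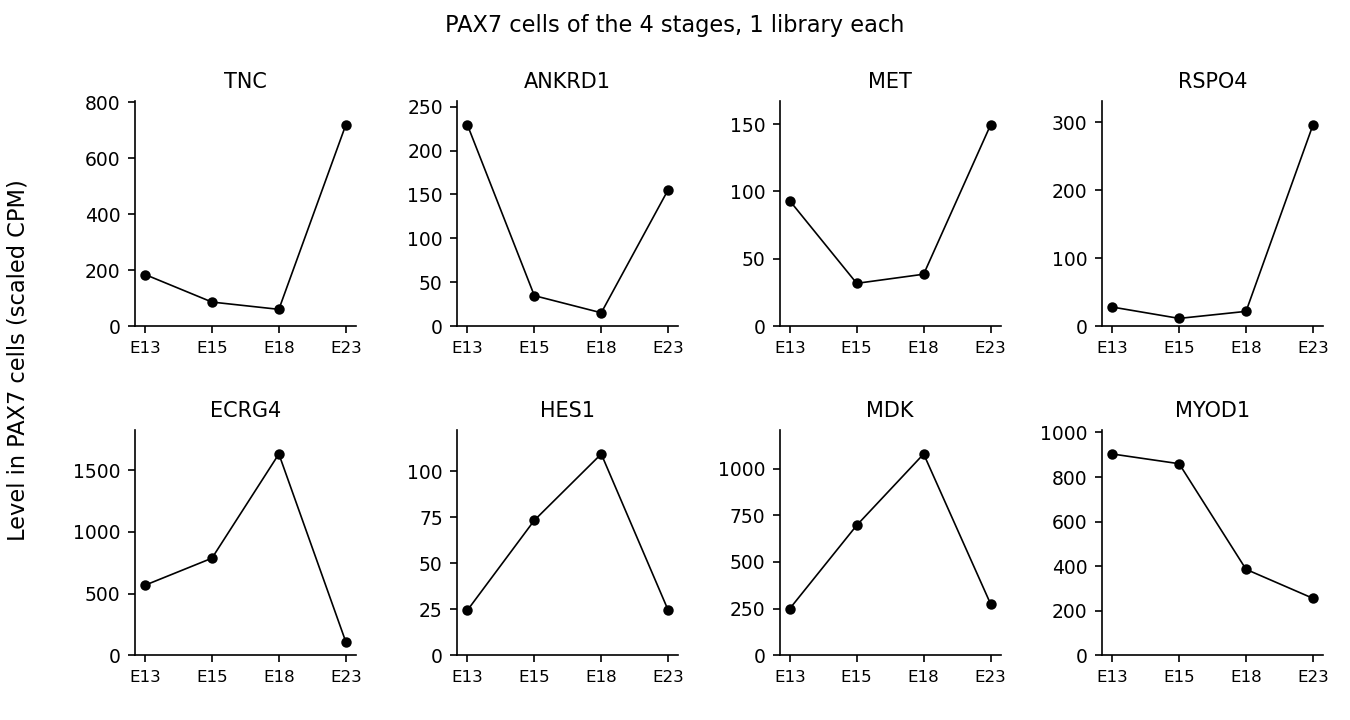
Each panel gives the level of a gene, in CPM scaled over the 4 libraries and from an axis at 0, in the PAX7 cells of E13, E15, E18 and E23, with 1 library per point and no error bars for replicates. ECRG4, HES1 and MDK peak at E18, TNC, RSPO4 and MET are highest at E23, ANKRD1 is high at E13 and E23, and MYOD1 is lowest at E23.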

How the data were processed

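Counts were analysed from 1 single-cell library per stage. The deposited matrices are whole-number UMI counts of each gene in each called cell, made by the authors with Cell Ranger and STAR; the methods name Cell Ranger 7.1.0 and the file header 9.0.0, and the build named in the methods differs from the assembly whose symbols match the files, so no coordinates are given. The study's mitochondrial limit of 20% removed no barcode. The members and gene lists were chosen with earlier results of these data known.

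Counts of the PAX7 cells of each library were summed and scaled by TMM in edgeR 4.0.16 (R 4.3.3), and no model was fitted. Ratios have exact conditional Poisson intervals (95%), with sums under 3 counts raised to 3 and no ratio where both were under 3. A gene was called at 2-fold or more and 20 CPM or more in the mean of both sums. Thinning drew 4000 UMIs per cell without replacement (numpy 2.4.6). Doublets were scored by scrublet in scanpy 1.11.5 and kept, except in an alternative that removed the highest scores, 0.8% per 1000 barcodes. On counts simulated from the E18 sums with Poisson error alone and 200 changed genes, the ratios were checked and recovered. The simulation held no library effect and no trend with gene length, so it checked the calculation only.

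Named genes were the 20 highest and 20 lowest ratios, up to 5 members of each of 24 lists past 2-fold in each direction, and a fixed set of regulators and checks; FOS, KLF6, NOTCH1, NOTCH2, IGFBP4, IGFBP5, HOXC6, TBX3, TBX15 and the markers named by level, such as ACTA2, were added after their values were seen. Some genes that the rule names are not reported here. Alternatives were other scalings, filters, PAX7 limits, cell choices and weights, and, added after seeing the data, an adjustment for gene length (20 bins of gene span) and all alternatives of the list medians.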

Additional observations from a re-analysis of the deposited data

Results flagged for a closer look

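CDH4 and SMOC2 differed in direction between PAX7 cells and myocytes. CDH4 had a log2 ratio of E23 over E18 of -1.27 in PAX7 cells and 1.81 in myocytes (counting interval 1.23 to 2.40), and SMOC2 -1.70 in PAX7 cells and 1.53 in myocytes (0.91 to 2.16). The difference was not tested, since each stage had 1 library, and the myocytes numbered 597 at E23 and 1656 at E18. In the myocytes CDH4 had 12.7 CPM at E23 and 3.62 CPM at E18, both under the 20 CPM of the filter. In fibro-adipogenic cells CDH4 stood at 0.74, while SMOC2 was below 0 there.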

How the results depend on the processing

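All 146 named genes past 2-fold kept their direction under 9 of the 10 alternatives; in cells without cycling genes 144 could be measured, all in the same direction. Those still past 2-fold numbered 146 with median of ratios and with the highest doublet scores removed. In cells with no DCN and at most 1 UMI of ACTC1 they numbered 138. They were 130 with library totals and 108 after the adjustment for gene length. The 146 genes were taken for being past 2-fold in PAX7 cells whose counts the alternatives reuse in whole or in part. Their like direction was thus in part set by that choice. Library totals gave 836 higher and 302 lower genes, a filter at 5 CPM 680 and 1000, no filter 1926 and 2370, and the length adjustment 339 lower; the other alternatives stayed within 1.5 times of 396 and 635. Less the median of all genes, list medians moved by more than 0.25 after the length adjustment, which was chosen after seeing the data, to 0.17 for quiescence and growth arrest (main value -0.26), 0.22 for DNA replication (-0.05), 0.25 for Notch (0.65), 0.026 for basement membrane (0.31), 0.37 for matrix proteases (0.08), 0.74 for contraction (0.31), -0.14 for oxidative phosphorylation (-0.73), 0.55 for stress (0.24), 1.73 for immediate early genes (1.16), -0.062 for axon guidance (0.33), 0.48 for chemokines (0.17) and -0.89 for HOX genes (-1.40). Cells chosen after thinning moved mitosis to -0.44 (-0.75) and immediate early genes to 1.44, doublet removal moved immediate early genes to 1.42, and cells without cycling genes moved mitosis to 0.34. The gap in cycling cells, -5.41 percentage points, was -1.32 without thinning and -2.08 in cells chosen after thinning, that of MYOD1, -2.08, was -4.59 at 2000 UMIs, and that of MYF5, 10.1, was 12.8 at 4 UMIs of PAX7 or more. The cause of these shifts was not tested. Depth limits CDKN1A, KDR and LIN28B, all under 5 CPM. No paired analysis was possible because each stage had 1 library.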
